A study of Homo sapiens with 4 samples.

Results

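Megakaryocytes are the bone marrow cells that shed platelets, the small blood particles that start a clot. In CD31+ cells made from the established human embryonic stem cell line H1, 9 genes that mark this lineage were followed among the 58229 genes of the expression table. They were chosen by name as ITGA2B, ITGB3, GP1BA, GP1BB, GP9, PF4, PPBP, TREML1 and NFE2, and each had a single row in the table. RNA was sequenced at day 8 of hematopoietic differentiation in 2 libraries with overexpression of HAND1, a transcription factor (HAND1_OE), and in 2 libraries without it (Control). Both groups were of the same line and had received activin A and BMP4 for their first days and then VEGF and bFGF, and both were CD31+ populations. HAND1 was expressed before hemogenic endothelial cells turn into blood progenitors. The vector, the number of clones and whether Control cells carried an empty vector are not given in the sources used here. Nothing in the labels says that the libraries of a group came from separate cultures, so the p-values below measure the spread between these libraries, which may be technical. The comparison asks which genes of the blood program differ when HAND1 is high.

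In blood formation from pluripotent cells, megakaryocyte and erythroid precursors arise early from hemogenic endothelium and share the transcription factors GATA1, TAL1 and GFI1B. A maturing megakaryocyte covers its surface with the fibrinogen receptor, an integrin pair made of the products of ITGA2B (CD41) and ITGB3 (CD61), and with the von Willebrand factor receptor, assembled from the products of GP1BA, GP1BB, GP9 and GP5. It then fills alpha granules with small chemokines such as PF4 and PPBP, and NFE2 drives the late program that ends in platelet release. CD41 is also among the first surface markers of blood precursors as they leave the endothelium, before a lineage is fixed, so its RNA by itself does not mark a megakaryocyte.

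Levels are given as FPKM, fragments divided by transcript length and by library depth, a scale on which genes of different length can be set side by side. Differences are given as HAND1_OE minus Control on the scale of log2(FPKM + 1), which understates the change of a gene whose level is near or under 1 FPKM. HAND1 itself stood at 12.1 and 14.3 FPKM in Control, against 520 and 517 FPKM in HAND1_OE. The overexpression was thus present in both libraries labelled with it, with a difference of 5.20 (SE 0.15, adjusted p = 0.00145, limma). PECAM1, which encodes the CD31 protein used to define the cells, was at 95.5, 141, 92.0 and 160 FPKM in the same order of libraries, and the groups overlapped. FPKM summed to between 536284 and 606609 per library, from 13989 to 14542 genes reached 1 FPKM, and the depth behind these values is unknown.

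The megakaryocyte and platelet genes were lower in HAND1_OE wherever their level allowed a test. Of the 9 genes, 7 reached 1 FPKM in at least 2 libraries and were tested among 14622 genes, and 7 were called lower at an adjusted p under 0.05, against 2.11% of all genes tested (4.16% were called in either direction). The same 7 also had a difference of at least 1 on the log2 scale, a fold of 2, as did 1.91% of all genes tested. ITGB3, GP9 and PF4 entered the test through their Control libraries alone, so a call for them had to be toward lower values. Only ITGA2B, GP1BA and NFE2 reached 1 FPKM in every library, and GP1BB did so in 3 of them. With the test restricted to genes at 1 FPKM in every library, these 3 were called lower, against 1.81% of the 12841 genes left. PPBP and TREML1 never reached 1 FPKM and were not tested. None of these calls held when every gene above 0 was tested, a setting in which limma called 0 of 29860 genes lower (2352 at an unadjusted p under 0.05, or 7.88%, among them the same 7 genes).

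**Figure D1:**
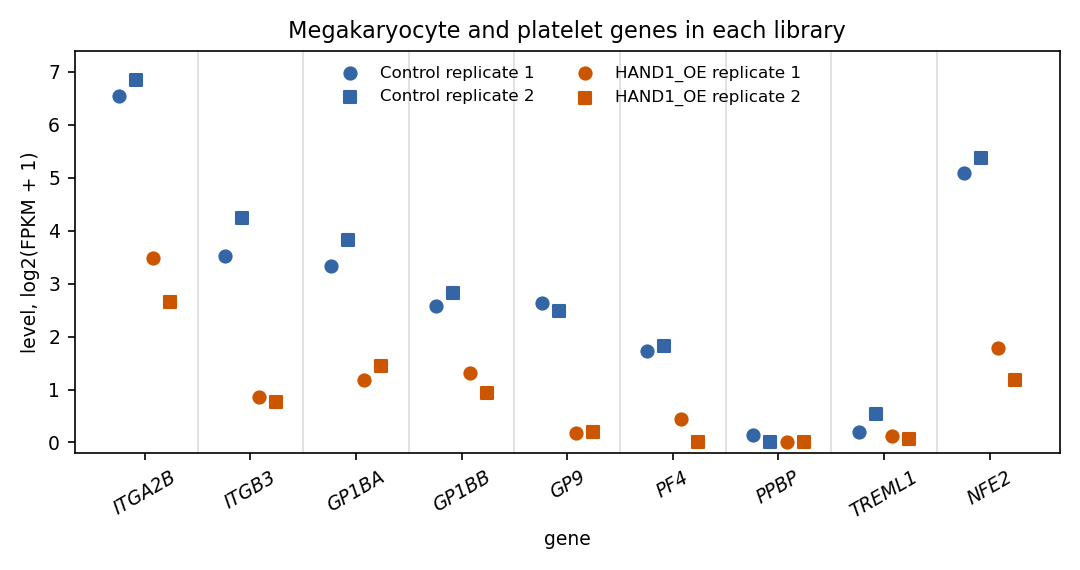
Level of each of the 9 genes, as log2(FPKM + 1), in every library, with blue for Control, orange for HAND1_OE, circles for replicate 1 and squares for replicate 2. The blue points lie above the orange ones for 8 genes, the gap is widest for ITGA2B and NFE2, and PPBP lies at or near 0 in all 4 libraries.

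As the plot of the 9 genes by library shows, both the starting level and the drop differed between genes. In Control the order from high to low was ITGA2B, NFE2, ITGB3, GP1BA, GP1BB, GP9, PF4, TREML1 and PPBP. ITGB3 and GP1BA overlapped in that order, as did GP1BB and GP9, while the other neighbours lay apart. In HAND1_OE, ITGA2B and NFE2 kept the top places, but ITGB3 stood below GP1BA and GP1BB, and GP9 below PF4. NFE2 overlapped GP1BA there, GP1BA overlapped GP1BB, and PF4 overlapped GP9. The summed FPKM of the 9 genes was 158 and 199 in Control and 16.8 and 10.1 in HAND1_OE, which is 9.40% and 5.65% of the Control mean. Since the RNA is from whole populations, fewer cells of a type and less RNA per cell cannot be told apart.

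The fibrinogen receptor genes held the largest share of this RNA. ITGA2B (ENSG00000005961.17, chr17:44372180-44389505, minus strand, GRCh38) encodes the alpha IIb chain, which pairs only with the ITGB3 product. Its level was 92.4 and 115 FPKM in Control and 10.3 and 5.33 FPKM in HAND1_OE. Both HAND1_OE libraries lay far below both Control libraries. The means were 104 ± 15.7 and 7.79 ± 3.49 FPKM (SD, n = 2 each), so that 7.53% of the Control level was left, and the difference of -3.62 (SE 0.30, 95% interval -4.36 to -2.88) had an adjusted p = 0.0073 in limma. This was the 16th lowest difference of the 14622 genes tested.

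ITGB3 (ENSG00000259207.7, chr17:47253846-47311816, plus strand) encodes the beta 3 chain, which also pairs with the alpha V chain in endothelial and mesenchymal cells. It was at 10.4 and 17.8 FPKM in Control and 0.803 and 0.695 FPKM in HAND1_OE. The Control libraries differed from each other by more than the HAND1_OE libraries, but the groups were far apart. From 14.1 ± 5.24 to 0.749 ± 0.077 FPKM (SD, n = 2 each), 5.30% of the Control level was left, with a difference of -3.07 (SE 0.28, adjusted p = 0.00851, limma). The table also lists the overlapping locus AC068234.1 on the same strand, which was near 0 in all libraries.

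The other partner of beta 3 was not called lower. ITGAV, the alpha V chain, was at 25.9 and 29.9 FPKM in Control and 30.2 and 43.4 FPKM in HAND1_OE, with a difference of 0.37 (95% interval -0.16 to 0.90, adjusted p = 0.472, limma). The ratio of ITGAV to ITGB3 within a library was 2.48 and 1.68 in Control and 37.6 and 62.5 in HAND1_OE. By contrast the ratio of ITGA2B to ITGB3 was 8.87 and 6.43 in Control and 12.8 and 7.67 in HAND1_OE, so the groups overlapped for the 2 chains of the platelet receptor. ITGA2B was about level with PECAM1 in Control, at 0.968 and 0.812 of its FPKM, and at 0.112 and 0.0333 in HAND1_OE.

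Among 24 integrin chains other than ITGA2B and ITGB3, 17 were tested, 2 were called lower and 4 higher in HAND1_OE, with a median difference of 0.33 (background 2.11% lower and 2.04% higher). The lower ones were ITGB2 (-1.49, adjusted p = 0.0399), the chain shared by leukocyte integrins, and ITGA7 (-1.10, adjusted p = 0.028), a laminin receptor chain. The higher ones were ITGA8 (2.26, adjusted p = 0.007), ITGA1 (1.70, adjusted p = 0.0159), ITGA11 (1.40, adjusted p = 0.0263) and ITGA2 (1.35, adjusted p = 0.0419), which bind matrix proteins such as collagen. Counted with ITGA2B and ITGB3, 4 of 19 tested chains were lower and 4 higher. ITGB2 and ITGB3 entered the test through Control alone and ITGA11 through HAND1_OE alone, so the direction of those calls was fixed in advance. With a library left out, the lower calls among the 17 numbered 0 (without Control replicate 2) or 1 and the higher ones 2 or 3. The call of ITGA11 was lost when any of the 4 libraries was left out (adjusted p of 0.0554 to 0.084), and that of ITGB2 without Control replicate 2 (0.128) or HAND1_OE replicate 2 (0.0617).

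The von Willebrand factor receptor genes left unequal shares of their Control FPKM. GP1BA (ENSG00000185245.7, chr17:4932297-4935030, plus strand) encodes the chain that binds von Willebrand factor. Its level was 9.04 and 13.1 FPKM in Control and 1.26 and 1.71 FPKM in HAND1_OE. The groups did not overlap, and every library had at least 1 FPKM. From 11.1 ± 2.90 to 1.49 ± 0.323 FPKM (SD, n = 2 each), 13.4% of the Control level was left, with a difference of -2.27 (SE 0.24, adjusted p = 0.0115, limma).

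GP9 (ENSG00000169704.4, chr3:129060767-129062406, plus strand) encodes a small chain needed to bring the complex to the surface. It stood at 5.18 and 4.62 FPKM in Control, against 0.125 and 0.146 FPKM in HAND1_OE. The libraries within each group were close together and the groups far apart. The mean went from 4.90 ± 0.401 to 0.136 ± 0.0149 FPKM (SD, n = 2 each), and the 2.77% left was the lowest share among the members with a value above 0 in every library. Its difference was -2.38 (SE 0.20, adjusted p = 0.0073, limma) with a pseudocount of 1 and -4.41 (adjusted p = 0.0103) with a pseudocount of 0.1.

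GP1BB (ENSG00000203618.5, chr22:19722945-19724771, plus strand) encodes the chain joined to the GP1BA product. Control held 4.95 and 6.05 FPKM and HAND1_OE held 1.495 and 0.904 FPKM. The groups did not overlap, and 21.8% of the Control mean was left. The difference was -1.57 (SE 0.23, adjusted p = 0.0263, limma), and the call was lost without Control replicate 1 (adjusted p = 0.0561) or Control replicate 2 (0.0911). This gene lies wholly within SEPT5 on the same strand, a septin gene at 12.3, 12.5, 9.16 and 9.67 FPKM across the libraries, so the division of reads between them is uncertain and the share left may hold reads of SEPT5.

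Within a library, GP1BA was 1.74 and 2.85 times the level of GP9 in Control and 10.04 and 11.7 times in HAND1_OE. GP1BB was 0.955 and 1.31 times GP9 in Control and 11.9 and 6.17 times in HAND1_OE, with the doubt over its reads as given above. GP5, the fourth gene of the complex, was at 0.194 and 0.484 FPKM in Control and 0.0823 and 0.188 FPKM in HAND1_OE and was not tested. By FPKM, GP9 left the smallest share of its Control level among these chains. Its HAND1_OE levels of 0.125 and 0.146 FPKM are near 0, so its share and ratios rest on low values. On the log2(FPKM + 1) scale, which understates changes at such levels, GP1BA and GP9 had similar differences (-2.267 and -2.375). Whether the chains differ was not tested.

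**Figure D2:**
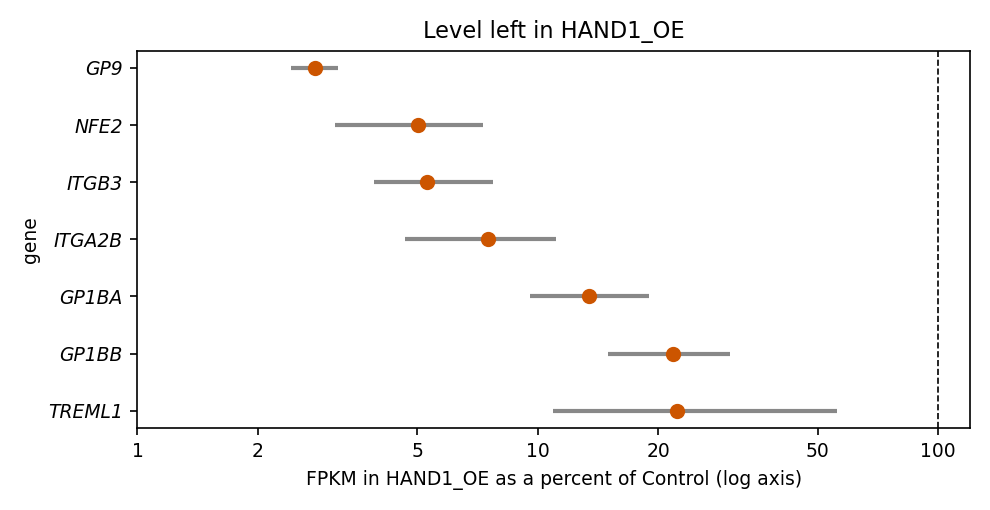
Level left in HAND1_OE as a percent of Control on a log axis, with points for the ratio of the group means and bars from the lowest to the highest of the 4 ratios between a HAND1_OE and a Control library, for the 7 members above 0 in every library. GP9 lies lowest at 2.77%, NFE2, ITGB3 and ITGA2B lie between 5.01% and 7.53%, and the glycoprotein Ib genes lie at 13.4% and 21.8%.

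The bars of GP9 do not reach those of GP1BA or GP1BB in the plot of the level left. They run from 2.42% to 3.17% for GP9, from 9.57% to 19.0% for GP1BA and from 14.9% to 30.2% for GP1BB. Those of ITGA2B (4.65% to 11.1%), ITGB3 (3.90% to 7.71%) and NFE2 (3.12% to 7.28%) overlap each other. TREML1, with levels under 1 FPKM, has the widest bar, from 10.9% to 56.0%.

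The promoters of these genes are shown because GATA and ETS factors are known regulators of megakaryocyte genes, and the genes of several such factors were measured in the same libraries. RefSeq entries (GRCh38.p14) were found for 5 of the 9 genes, ITGA2B, GP1BB, GP9, PPBP and TREML1. The 250 bases before the RefSeq gene start, which can differ from the start in the coordinates given above, are printed below. They are shown for the 3 that were called lower and for PPBP, which was near 0 in all libraries. Capitals mark GATAA or GATAG (GATA) and GGAAG (ETS), searched on both strands. The windows are chr17:44389650-44389899 on the minus strand for ITGA2B, chr22:19723289-19723538 on the plus strand for GP1BB, chr3:129060529-129060778 on the plus strand for GP9 and chr4:73988191-73988440 on the minus strand for PPBP.
ITGA2B: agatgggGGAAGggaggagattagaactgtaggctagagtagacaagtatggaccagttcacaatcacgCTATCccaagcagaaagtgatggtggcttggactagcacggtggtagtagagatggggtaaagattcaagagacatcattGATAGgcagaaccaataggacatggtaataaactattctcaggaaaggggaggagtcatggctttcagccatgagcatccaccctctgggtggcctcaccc
GP1BB: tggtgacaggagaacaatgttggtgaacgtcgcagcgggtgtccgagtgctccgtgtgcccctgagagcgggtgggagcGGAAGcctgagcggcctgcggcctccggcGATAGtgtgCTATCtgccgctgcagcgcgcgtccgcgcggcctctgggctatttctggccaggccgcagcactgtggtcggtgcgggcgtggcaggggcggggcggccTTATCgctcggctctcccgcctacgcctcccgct
GP9: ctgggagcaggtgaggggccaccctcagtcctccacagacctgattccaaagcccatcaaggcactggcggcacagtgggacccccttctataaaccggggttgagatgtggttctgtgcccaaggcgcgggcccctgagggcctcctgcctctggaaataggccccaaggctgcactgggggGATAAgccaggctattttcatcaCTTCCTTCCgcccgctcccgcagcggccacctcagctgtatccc
PPBP: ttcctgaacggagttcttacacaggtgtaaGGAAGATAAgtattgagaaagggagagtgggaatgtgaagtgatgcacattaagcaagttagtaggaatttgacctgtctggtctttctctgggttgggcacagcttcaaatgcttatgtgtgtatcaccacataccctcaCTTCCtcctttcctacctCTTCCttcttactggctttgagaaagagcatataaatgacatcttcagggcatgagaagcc

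ITGA2B held 2 GATA matches and 1 ETS match, GP1BB held 3 GATA matches and 1 ETS match, and GP9 held 1 GATA match ending 63 bases before the start and 2 overlapping ETS matches. PPBP held 1 GATA match, overlapping the first of its 3 ETS matches, and TREML1 held 0 GATA and 2 ETS matches. A GATA match was present in 31.9% of all 35116 RefSeq windows of this length and an ETS match in 65.1%, so such short words are common. The E-box CANNTG, present in 61.8% of windows, had 2 matches in GP9, 2 in PPBP, 3 in TREML1 and 0 in ITGA2B and GP1BB. The NFE2 word TGAGTCA, present in 4.2% of windows, was in none of the 5 promoters. The GP1BB window lies inside SEPT5 and inside the GP1BB coordinates of the table, whose annotation starts the gene further upstream. For ITGA2B that annotation starts the gene further downstream, at 44389505, while the window stops at 44389650. The bases between were not searched.

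The genes of the GATA and ETS factors and their blood partners were measured in the same libraries. Of 21 listed transcription factors of the megakaryocyte lineage, 21 were tested, 7 were called lower and 0 higher (background 2.11% lower), and the median difference was -0.63 against -0.08 over all genes tested. In 15 of them both HAND1_OE libraries lay below both Control libraries (background 30.1%), and 0 lay above. At an unadjusted p under 0.05, 11 were lower and 0 higher, a count given without the share of all genes at that threshold.

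GATA1, the shared factor of megakaryocytes and red cells, was at 25.6 and 29.6 FPKM in Control and 1.51 and 0.543 FPKM in HAND1_OE (-3.86, adjusted p = 0.007). RUNX1, needed for blood stem cells to emerge from endothelium, was at 16.5 and 35.0 FPKM against 1.52 and 1.89 FPKM (-3.22, adjusted p = 0.0132). GFI1B, a repressor of the same lineages, was at 12.26 and 12.01 FPKM against 0.956 and 0.232 FPKM (-3.08, adjusted p = 0.00754). None of these 3 genes had overlapping groups. GFI1B entered the test through Control alone, so its call could only be lower. KLF1, a red cell factor that competes with FLI1 (-3.84, adjusted p = 0.007), and MYB, a progenitor factor (-1.73, adjusted p = 0.0078), were also called lower. The other listed GATA and ETS factors were not called in limma. GATA2 was at 103 and 117 FPKM in Control and 81.9 and 74.5 FPKM in HAND1_OE (-0.49, adjusted p = 0.18). ETV6 had a difference of -0.318 (adjusted p = 0.4) and ERG, with overlapping groups, a difference of 0.155 (adjusted p = 0.722). FLI1, an ETS factor of both megakaryocytes and endothelium, was at 157 and 180 FPKM in Control and 57.4 and 91.2 FPKM in HAND1_OE. Its groups did not overlap, but with a difference of -1.21 (95% interval -1.82 to -0.59) the adjusted p was 0.0649. FLI1 passed with 1 FPKM asked of every library (0.0488) or a replicate block (0.0227). It did not pass with quantile normalization (0.0872), median-ratio scaling (0.085), a pseudocount of 0.1 (0.0703), no variance trend (0.0773) or no filter (0.278). With a library left out its difference ran from -1.536 to -0.877.

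NFE2 (ENSG00000123405.13, chr12:54292111-54301121, minus strand) encodes the blood-specific subunit of a factor that binds DNA together with a small MAF protein and switches on late platelet genes. It was at 33.3 and 40.2 FPKM in Control, against 2.42 and 1.26 FPKM in HAND1_OE. Both HAND1_OE libraries lay far below Control. From 36.7 ± 4.91 to 1.84 ± 0.825 FPKM (SD, n = 2 each), 5.01% was left, with a difference of -3.76 (SE 0.25, 95% interval -4.37 to -3.14, adjusted p = 0.00662, limma), the 14th lowest of all genes tested. A gene on the opposite strand, AC078778.2, spans its whole length at 0.132 to 0.319 FPKM, and whether reads were assigned by strand is not given in the sources used here.

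The genes of its partners and relatives did not pass the test. Of 8 such genes, 8 were tested in limma and 0 were called in either direction, with a median difference of -0.03. At an unadjusted p under 0.05, 1 was lower and 0 higher. The share of all genes at that threshold is not given, so no result is read from this count. The small MAF genes MAFF (-0.07, 95% interval -0.58 to 0.44), MAFG (-0.34, -0.78 to 0.10) and MAFK (0.01, -0.56 to 0.58) had adjusted p-values of 0.92, 0.414 and 0.989. These intervals leave room for changes of some size but not for one like that of NFE2. Within a library NFE2 was 2.07 and 2.15 times the level of MAFG in Control and 0.200 and 0.0841 times in HAND1_OE.

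Of the repressors that use the same partners, BACH1 was at 5.66 and 7.29 FPKM against 4.51 and 6.10 FPKM, and BACH2 at 0.250 and 0.815 FPKM against 1.33 and 1.23 FPKM. BACH1 overlapped between groups, and BACH2 was higher in both HAND1_OE libraries without passing the test (0.60, adjusted p = 0.331). Among the relatives that act in stress responses, NFE2L1 stood at 73.3 FPKM in each Control library and 86.7 and 106 FPKM in HAND1_OE (0.38, adjusted p = 0.309). NFE2L2 stood at 16.4 and 15.9 FPKM against 19.9 and 17.4 FPKM (0.20, adjusted p = 0.607). NFE2L3 had the lowest difference of the 8, with 4.79 and 4.62 FPKM in Control and 2.10 and 2.29 FPKM in HAND1_OE (-0.84, 95% interval -1.28 to -0.40, adjusted p = 0.07).

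**Figure D3:**
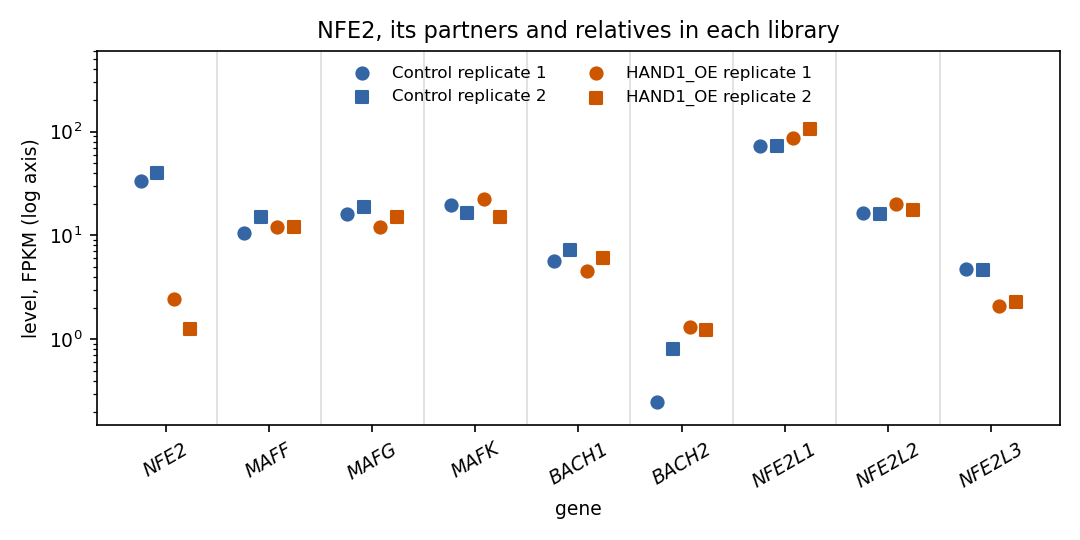
FPKM on a log axis of NFE2, the small MAF genes that encode its partners, and related genes in every library, with blue for Control, orange for HAND1_OE, circles for replicate 1 and squares for replicate 2. NFE2 goes from 33.3 and 40.2 FPKM to 2.42 and 1.26 FPKM, while MAFF, MAFK and BACH1 overlap between the groups.

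In the plot of NFE2 and its partners, NFE2 lies above the 3 small MAF genes in both Control libraries and below them in both HAND1_OE libraries. The ratio of NFE2 to GATA1 was 1.30 and 1.36 in Control and 1.61 and 2.31 in HAND1_OE, and that of ITGA2B to GATA1 was 3.61 and 3.87 in Control and 6.81 and 9.82 in HAND1_OE. Neither ratio overlapped between groups, and both were higher in HAND1_OE. GATA1 was at 1.51 and 0.543 FPKM in the HAND1_OE libraries, near the filter, so both ratios rest on low values there.

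The granule chemokines were low in all libraries. PF4 (ENSG00000163737.3, chr4:73981077-73982124, minus strand), which encodes platelet factor 4, was at 2.29 and 2.55 FPKM in Control, at 0.352 FPKM in HAND1_OE replicate 1 and was listed at 0 in HAND1_OE replicate 2. Because of the listed 0, no mean or fold is given. The difference of -1.56 (SE 0.24) had an adjusted p = 0.0335 in limma, and this was the least stable call of the 7. It was lost without Control replicate 1 (adjusted p = 0.0805), Control replicate 2 (0.104) or HAND1_OE replicate 2 (0.0522) and with a pseudocount of 0.1 (0.0972).

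PPBP (ENSG00000163736.3, chr4:73987038-73988197, minus strand), which encodes pro-platelet basic protein, was at 0.106 FPKM in Control replicate 1 and was listed at 0 in the other 3 libraries. In platelets it is among the most abundant messages, and here it was near 0 in Control as well. PPBP and PF4 lie in a chemokine cluster on chromosome 4, of which 7 neighbours were examined. Of these, 2 were tested and 2 were called lower (background 2.11%), CXCL2 (8.55 and 12.2 FPKM against 0.617 and 1.14 FPKM, -2.60, adjusted p = 0.00986) and CXCL3 (3.65 and 6.61 FPKM against 0.680 and 0.320 FPKM, -1.998, adjusted p = 0.0304). CXCL3 entered the test through Control alone, so its call could only be lower, and the call was lost without Control replicate 2 (adjusted p = 0.0701).

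The other chemokines of the cluster stayed under 1 FPKM in at least 3 libraries and were not tested. CXCL1 was at 0.502 and 1.26 FPKM in Control against 0.187 and 0.311 FPKM, CXCL5 at 0.120 and 0.287 FPKM against 0.0339 and 0.0194 FPKM, and CXCL6 at 0.0630 and 0.165 FPKM in Control and listed at 0 in both HAND1_OE libraries. PF4V1, a near copy of PF4, was listed at 0 in every library, and how reads shared by these copies were divided is not known. CXCL8 was the exception in direction, listed at 0 in both Control libraries but present at 0.197 and 0.0308 FPKM in HAND1_OE.

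TREML1 (ENSG00000161911.11, chr6:41149342-41154337, minus strand) encodes a receptor stored in platelet granules. It was at 0.149 and 0.444 FPKM in Control and 0.0836 and 0.0484 FPKM in HAND1_OE. The groups did not overlap, but the values were too low for the filter. With every gene above 0 tested, its difference was -0.27 (adjusted p = 0.559, limma), and that of PPBP was -0.07 (adjusted p = 0.669).

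In the wider megakaryocyte and platelet program, more genes were called lower than higher. Over 7 lists of 129 genes, none of them a member, 112 were tested, 26 were called lower (background 2.11%) and 5 higher (background 2.04%), with a median difference of -0.31. The lower calls numbered 14 without Control replicate 1, 16 without Control replicate 2, 23 without HAND1_OE replicate 1 and 24 without HAND1_OE replicate 2, and the higher calls 2, 2, 3 and 2. A gene that reached 1 FPKM in one group alone could be called in one direction only, which holds for 9 of the 26 lower calls, 7 of them in platelet signalling. Of the 112, 57 had both HAND1_OE libraries below both Control libraries (background 30.1%) and 18 had both above (background 16.2%).

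**Figure D4:**
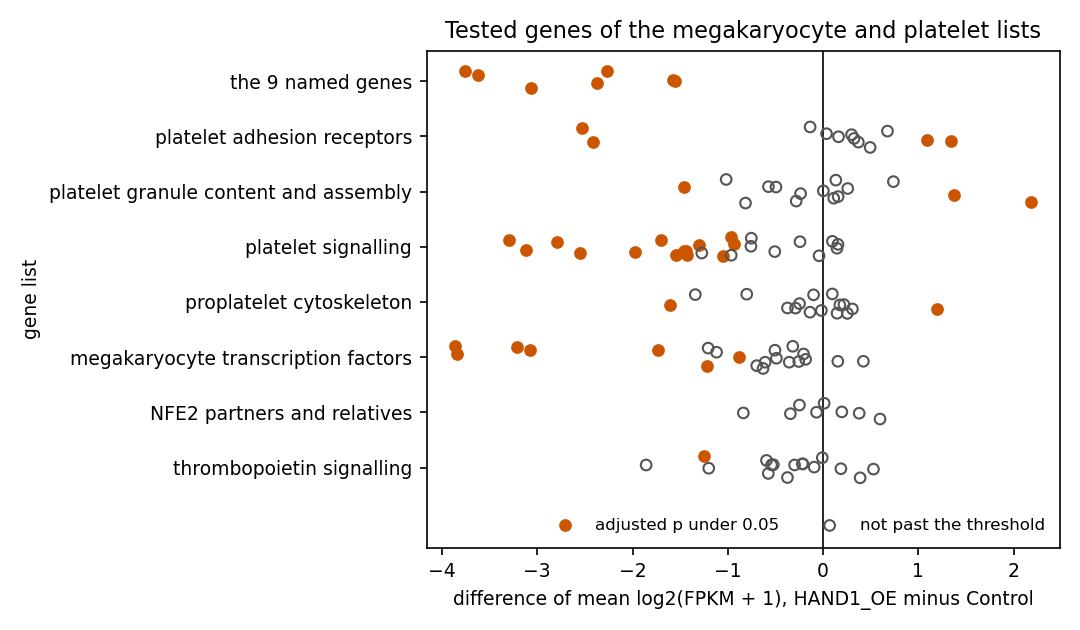
Difference of mean log2(FPKM + 1), HAND1_OE minus Control, for each tested gene of the 9 members and of the 7 lists, with filled orange points at an adjusted p under 0.05 and open points otherwise. Calls in the signalling and transcription factor lists lie left of 0, those among adhesion receptors, granule genes and cytoskeleton lie on both sides, and the NFE2 partners have none.

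As the plot of the lists shows, the calls were most numerous in platelet signalling, where 24 of 29 genes were tested. Of these, 14 were called lower (background 2.11%) and 0 higher (background 2.04%), with a median of -1.16. Without Control replicate 1 the lower calls numbered 5, without Control replicate 2 they numbered 7, and without HAND1_OE replicate 1 or 2 they numbered 11 and 10. The largest differences were in MPIG6B, an inhibitory platelet receptor (9.38 and 15.2 FPKM against 0.204 and 0.451 FPKM, -3.30, adjusted p = 0.0073), and P2RX1, an ATP-gated channel (12.8 and 13.2 FPKM against 0.776 and 0.476 FPKM, -3.11, adjusted p = 0.00607). PTGS1, the enzyme that aspirin blocks in platelets, was at 9.34 and 13.4 FPKM against 0.808 and 0.717 FPKM (-2.79, adjusted p = 0.0073). In each of these genes the groups were far apart. Each entered the test through Control alone, as did ADRA2A and PLEK below, so a call could only be lower.

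ADRA2A, an adrenaline receptor (-2.55, adjusted p = 0.0187), and PLEK, a substrate of protein kinase C (-1.97, adjusted p = 0.0228), followed, and the call of PLEK was lost without Control replicate 1 (adjusted p = 0.0561). P2RY12, the ADP receptor of platelets, was listed at 0 in every library. It was singled out after its value was seen. The summed FPKM of the signalling list was 57.7% and 59.9% of the Control mean in the HAND1_OE libraries.

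The adhesion receptors beyond the members did not move one way. Of 16 genes, 12 were tested, 2 were called lower (background 2.11%) and 2 higher (background 2.04%), with a median of 0.31. CD226, an adhesion molecule of platelets and lymphocytes, was at 4.85 and 9.17 FPKM in Control and 0.262 and 0.405 FPKM in HAND1_OE (-2.53, adjusted p = 0.0169). It entered the test through Control alone, so its call could only be lower. FCER1G, the signalling chain of the collagen receptor, was at 35.1 and 36.6 FPKM against 6.80 and 5.11 FPKM (-2.42, adjusted p = 0.007), while GP6, the chain that binds collagen, was at 0.0456 and 0.0193 FPKM in the first library of each group and listed at 0 in the others.

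ITGA2, the alpha chain of another collagen receptor, was higher in HAND1_OE (3.05 and 4.68 FPKM against 9.93 and 12.6 FPKM), and so was CD9, a tetraspanin of many cell types (213 and 197 FPKM against 472 and 405 FPKM, 1.09, adjusted p = 0.0305). The call of CD9 was lost when any of the 4 libraries was left out (adjusted p of 0.0544 to 0.109), and that of ITGA2 without Control replicate 1 (0.12), Control replicate 2 (0.0504) or HAND1_OE replicate 2 (0.0784). CLEC1B, a receptor of platelets, was at 0.136 and 0.0686 FPKM against 0.170 and 0.162 FPKM and was not tested.

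Among 21 genes of granule content and assembly, 15 were tested, with a median of 0.003. Of these, 1 was called lower (background 2.11%) and 2 higher (background 2.04%). VWF, which encodes von Willebrand factor in both platelets and endothelium, was at 31.3 and 14.6 FPKM in Control and 107 and 95.4 FPKM in HAND1_OE (2.18, adjusted p = 0.0338). This is the ligand of the receptor whose GP1BA, GP1BB and GP9 genes were lower in the same libraries. SPARC, a matrix protein made by many cells, was also higher (505 and 594 FPKM against 1450 and 1387 FPKM, 1.37, adjusted p = 0.022).

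MMRN1, a granule protein of platelets and endothelium, was lower (35.5 and 22.8 FPKM against 10.1 and 9.39 FPKM, -1.46, adjusted p = 0.0354). The call of MMRN1 was lost without Control replicate 1 (adjusted p = 0.0842), and that of SPARC without Control replicate 1 (0.0549), HAND1_OE replicate 1 (0.0823) or HAND1_OE replicate 2 (0.073). SELP, which encodes P-selectin, was at 1.95 and 0.906 FPKM against 0.776 and 0.757 FPKM and was not tested. THBS1, which encodes thrombospondin 1, was at 3.78 and 3.44 FPKM against 2.05 and 4.01 FPKM, with overlapping groups (-0.24, 95% interval -0.93 to 0.45, adjusted p = 0.76).

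In the proplatelet cytoskeleton list, 16 of 17 genes were tested, with a median of -0.06. Of these, 1 was called lower (background 2.11%) and 1 higher (background 2.04%). TUBA4A, an alpha tubulin of platelets, was lower (11.2 and 16.2 FPKM against 3.39 and 4.11 FPKM, -1.61, adjusted p = 0.0252), and TPM1, a tropomyosin of contractile cells, was higher (73.9 and 61.6 FPKM against 161 and 151 FPKM, 1.20, adjusted p = 0.022). Without Control replicate 2 neither passed (adjusted p of 0.0734 and 0.0894). TUBB1, the beta tubulin of the platelet ring, was at 0.411 and 0.805 FPKM in Control and 0.119 and 0.123 FPKM in HAND1_OE and was not tested.

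For thrombopoietin, the main growth factor of megakaryocytes, 16 of 17 genes of its signalling were tested. Of these, 1 was called lower (background 2.11%) and 0 higher (background 2.04%), with a median of -0.34. At an unadjusted p under 0.05, 6 were lower and 1 higher, again without the share of all genes at that threshold. STAT5A, a transcription factor of cytokine signalling, was at 30.5 and 27.0 FPKM in Control and 11.8 and 11.2 FPKM in HAND1_OE (-1.25, adjusted p = 0.0176), and its call was lost without Control replicate 1 (0.08) or Control replicate 2 (0.057).

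Markers of other blood cells were lower along with the 9 genes, and those that passed the filter through Control alone could only be called lower (2 of the erythroid, 2 of the myeloid and 3 of the pan-hematopoietic calls below). Of 14 erythroid markers, 12 were tested, 11 were called lower and 0 higher (background 2.11%), and their summed FPKM was 876 and 1266 in Control and 74.0 and 60.5 in HAND1_OE, which is 6.91% and 5.65% of the Control mean. The embryonic and fetal globin genes HBE1 (-4.19, adjusted p = 0.00607) and HBG2 (-4.15, adjusted p = 0.00379) and the heme synthesis gene ALAS2 (-4.18, adjusted p = 0.0073) were among them. AHSP and SLC4A1, markers of later red cells, were under 1 FPKM in Control and listed at 0 in HAND1_OE.

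Of 15 myeloid and mast cell markers, 7 were tested, 5 were called lower and 0 higher (background 2.11%). Their sums were 119 and 90.9 in Control and 11.8 and 8.86 in HAND1_OE, and the granulocyte genes ELANE and PRTN3 were listed at 0 in every library. AIF1 (-3.17, adjusted p = 0.007), TYROBP (-3.11, adjusted p = 0.0153) and MS4A3 (-3.09, adjusted p = 0.0078) had the lowest differences. Of 12 pan-hematopoietic markers, 10 were tested, 5 were called lower and 0 higher (background 2.11%), with sums of 413 and 432 in Control and 331 and 337 in HAND1_OE. The lower calls numbered 2 without Control replicate 1, 3 without Control replicate 2, 3 without HAND1_OE replicate 1 and 4 without HAND1_OE replicate 2. SPN, which encodes the blood progenitor marker CD43 (-3.13, adjusted p = 0.007), and VAV1 (-2.30, adjusted p = 0.0073) led these, whereas PTPRC, which encodes CD45, was at or under 0.0227 FPKM throughout.

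Of 12 endothelial markers, 12 were tested, 1 was called lower (background 2.11%) and 1 higher (background 2.04%), and 10 were not called. Their median difference was 0.07, and their sums of 2278 and 1786 in Control and 2313 and 2005 in HAND1_OE overlapped. The lower one was CLDN5, a tight junction gene (-2.27, adjusted p = 0.007), and the higher one was VWF. CDH5, which encodes VE-cadherin, was at 261 and 222 FPKM in Control and 257 and 280 FPKM in HAND1_OE, with a difference of 0.16 (adjusted p = 0.727), so the labelled CD31+ population expressed its defining endothelial genes in all 4 libraries.

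Of 10 stromal and mesenchymal markers, 9 were tested, 0 were called lower and 3 higher (background 2.04%), with sums of 510 and 427 in Control and 650 and 583 in HAND1_OE. PDGFRB (2.03, adjusted p = 0.0164) and POSTN (1.97, adjusted p = 0.009) had the largest rises. The call of POSTN could only be toward higher values because it passed the filter through HAND1_OE alone. Of the 9 tested, 6 had both HAND1_OE libraries above both Control libraries (background 16.2%). Another 2, COL1A1 and COL1A2, had both below (background 30.1%). Without Control replicate 1 the higher calls numbered 2. Of 7 pluripotent markers, 5 were tested in limma and 0 were called in either direction. Their sums were 94.0 and 110 in Control and 64.3 and 82.5 in HAND1_OE. At an unadjusted p under 0.05, 2 were lower and 0 higher, again without the share of all genes at that threshold. The part of all these markers in the lower level of the megakaryocyte and platelet genes was not tested.

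**Figure D5:**
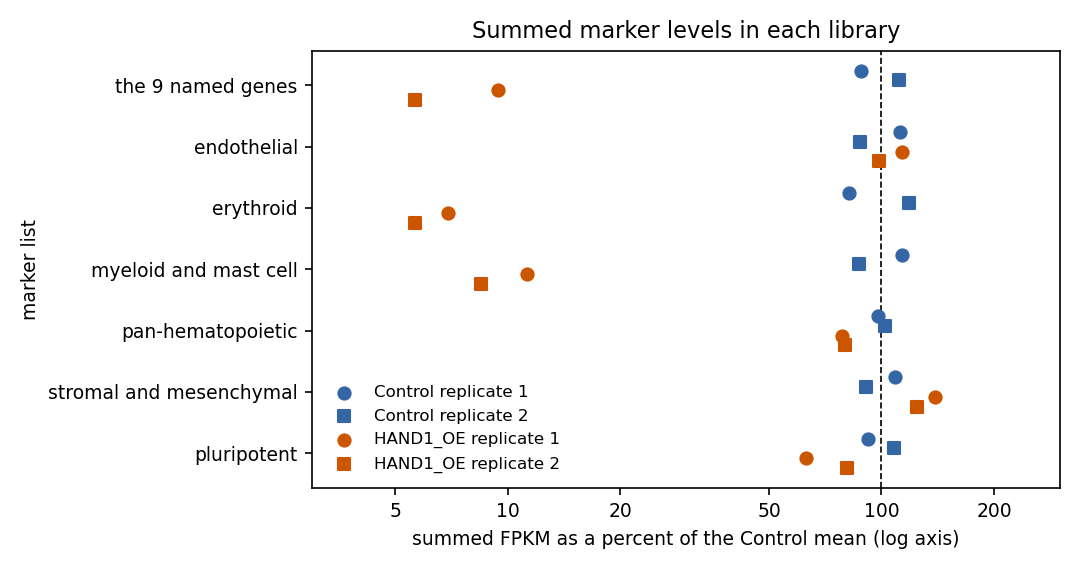
Summed FPKM of the 9 genes and of 6 marker lists in each library, as a percent of the Control mean on a log axis, with blue for Control, orange for HAND1_OE, circles for replicate 1 and squares for replicate 2. The 9 genes, the erythroid and the myeloid sums lie between 5.65% and 11.3% in HAND1_OE, while the endothelial sums overlap those of Control.

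In the plot of summed markers, the pan-hematopoietic sum lies at 78.4% and 79.7% of the Control mean in HAND1_OE, far from the erythroid one. LAPTM5 and ARHGDIB, which make up most of that sum, had differences of -0.02 and 0.07, and both were picked out here after their values were seen.

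Genes whose profile over the 4 libraries was closest to the median profile of the 9 genes included CMTM5, AC004687.1, HAND2, SLC18A2, EMX1, UCP2 and CREG2, at distances of 0.16 to 0.25 on the log2(FPKM + 1) scale after each gene was centred on its mean. CMTM5, the closest, was at 15.3 and 17.8 FPKM in Control and 3.06 and 3.81 FPKM in HAND1_OE. SLC18A2, which encodes the transporter that loads monoamines into vesicles, was at 5.97 and 7.22 FPKM against 0.914 and 0.975 FPKM. HAND2, the closest relative of HAND1, was at 35.4 and 36.8 FPKM against 7.24 and 9.09 FPKM, a difference of -2.03. All these genes were picked by their values in the same 4 libraries, so a lower level in HAND1_OE was fixed by the choice.

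The distances rest on 4 libraries, and with such a small number many genes have a like profile. The calls of these genes add no support for a decrease, and that of CREG2 was lost without Control replicate 2. AC004687.1, SLC18A2, EMX1 and CREG2 also entered the test through Control alone. Among the members, GP1BA was closest to the median profile (0.27), then GP9 (0.41) and GP1BB (0.68), and ITGA2B (1.69), NFE2 (1.75), TREML1 (1.84) and PPBP (2.06) were farthest. The first 2 of these had larger differences than the median member, and the last 2 were low in every library.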

How the data were processed

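Groups were taken from the sample titles. RNA of the 2 Control and 2 HAND1_OE libraries was prepared with an Illumina TruSeq kit. The authors deposited a single table of FPKM values per gene and library. The table does not state its unit, which was taken to be FPKM because values are fractional, library totals differ and RSEM gives that unit. The submitters' processing notes name BWA, Bowtie and RSEM without versions, and the build hg19, but of the 55605 gene IDs found with their version in GENCODE 29, 55583 had its GRCh38 coordinates, so GRCh38 is used here. RSEM divides reads shared between genes by an estimate, so levels of overlapping or duplicated genes are uncertain. FPKM holds no counts, so depth is unknown and no interval from counting error is given.

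Of 58365 rows, 45 for Y copies of pseudoautosomal genes and 91 sharing a gene ID were left out. HAND1_OE was compared with Control on log2(FPKM + 1) by limma 3.58.1 under R 4.3.3, allowing the variance to follow the mean, for genes with at least 1 FPKM in 2 or more libraries. All p-values are two-sided, with Benjamini-Hochberg adjustment over the 14622 genes tested and a threshold of 0.05. With this filter, counts of listed genes at an unadjusted p under 0.05 are given without the share of all genes tested at that threshold. The smallest p of an exact permutation test with 2 against 2 libraries is 0.333, so none was used. The code was checked on simulated data with known changes. The 9 members, the other lists and the tests were chosen with earlier results of these data known.

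Named besides the members and HAND1 are the NFE2 partners, the neighbouring chemokines, key receptors and factors, up to 5 called genes with the largest differences per list, and the 8 genes whose centred profile has the smallest Euclidean distance to the members' median, of which 7 are given. Some genes that this rule covers are not reported here. Genes outside this rule (ITGA7, AHSP, SLC4A1, LAPTM5, ARHGDIB, P2RY12, GATA2, ETV6, ERG, COL1A1, COL1A2 and SEPT5) were chosen after their values were seen. Promoter sequences are from RefSeq. Alternatives were a pseudocount of 0.1, median-ratio scaling, quantile normalization, no filter, a filter of 1 FPKM in every library, no variance trend, a replicate block and each library left out.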

Additional observations from a re-analysis of the deposited data

How the results depend on the processing

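The filter decided most. With every gene above 0 tested, limma called 0 genes higher and 0 lower, 0 members and 0 of the listed pathway genes lower or higher, although 1458 and 2352 genes, 7 members and 45 and 10 pathway genes had an unadjusted p under 0.05. HAND1 kept its difference of 5.20 there with an adjusted p of 0.153. In this setting the prior degrees of freedom fell from 3.61 to 1.32. With 1 FPKM asked of every library, 3 members and 17 pathway genes were called lower, since fewer genes were tested. Leaving out 1 library at a time gave 134 to 266 genes higher, 137 to 309 lower, 5 to 7 members lower, 14 to 24 pathway genes lower and 2 to 3 higher, and 5.08 to 5.31 for HAND1. Apart from the setting with no filter, ITGA2B, NFE2, GP1BA, GP9 and ITGB3 kept their calls in every alternative that tested them. So did 37 of the 53 other called genes that the naming rule covers. GP9 and ITGB3 were not tested with 1 FPKM asked of every library. Directions turned only for genes not called, MAFF (0.034 with median-ratio scaling, and -0.313 to 0.174 with a library left out), MAFK (-0.261 to 0.283), PECAM1 (-0.333 to 0.461) and THBS1 (-0.594 to 0.122), the last 3 also with a library left out.

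The labels give both groups replicates 1 and 2, but nothing ties equal numbers together. Deviations of same-numbered libraries had a correlation of 0.383 over 14622 genes. With a replicate block, 597 genes were called higher and 712 lower, with 7 members and 39 pathway genes lower and 7 higher. Depth sets no limit that could be computed here, and levels under 1 FPKM were not tested.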
